A study of Mus musculus with 35 samples.

Results

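The set described here is the long non-coding RNAs that mouse colon tumour organoids expressed at a measurable level. Its members are the genes typed lncRNA or TEC (a GENCODE type for transcripts still awaiting experimental evidence). They were selected on their measured counts: a member had 10 or more counts in at least 12 of the 27 libraries of a carmofur experiment. Host genes of small nucleolar RNAs (the Snhg genes, Gas5, Zfas1 and Epb41l4aos, 16 genes at that level) were left out. The rule kept 407 genes, 328 lncRNA and 79 TEC, out of 13008 genes of these types and 54354 genes in all. Because the rule used counts in treated and control libraries together, a gene can be a member through its treated libraries. In 318 members at least 6 controls and at least 6 carmofur libraries reached 10 counts, 9 members reached it in at most 2 of the 12 controls, and 0 in at most 2 of the 15 carmofur libraries. At the edge of the rule, 31 members reached 10 counts in exactly 12 libraries (median over members of the median count, 2) and 25 genes of these types fell just short with 11 (median 5).

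RNA came from colon tumour organoids grown in vitro with the genotype label AKP, shared by all groups, controls included. The labels do not spell out the alleles, the age or sex of the source, the doses or the times. The groups were PA control (3 libraries), palmitic acid in batch1 (3) and batch2 (2), Carmofur control (12) and Carmofur (15). Palmitic acid is a saturated fatty acid and a precursor of ceramides, and carmofur inhibits ceramidases and also releases fluorouracil. The study set out to see what changes in fatty acids and ceramides do to the transcriptome. The palmitic acid controls are assigned to neither batch, so batch and treatment cannot be told apart there. The labels do not state that replicate libraries are independent cultures, and p-values therefore measure only the spread between libraries, which may be technical.

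Total counts ranged from 762888 to 3742289 in the palmitic acid experiment and from 1663750 to 10609563 in the carmofur experiment, with medians of 4795872 in the carmofur controls and 6321271 with carmofur. The 12 epithelial markers summed to between 3209 and 6755 CPM (TMM-scaled CPM, the library-size corrected count used throughout) over all 35 libraries, with Cdx1 at 0 in batch2. Marker sums were at most 78.3 CPM for mesenchyme, 166 CPM for immune cells and 21.6 CPM for endothelium and blood. Col1a1, Pdgfrb, Cd3e and Cdh5 were among the markers at 0 in every library. Other markers had counts: with carmofur 5 of 10 immune and 5 of 11 mesenchyme markers did. The immune marker Ptprc had counts in batch1 and in both carmofur groups. In bulk RNA, fewer cells of a type and less RNA per cell cannot be told apart.

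Long non-coding RNAs are transcribed by RNA polymerase II and often spliced and polyadenylated, but code for no known protein. Some have well studied roles: Malat1 lies in nuclear speckles, where splicing factors gather, Neat1 is the scaffold of paraspeckles, and Xist coats the inactive X chromosome. Many others are known only as annotated transcripts, and many carry copies of transposable elements in their exons. B2 is such an element in mouse, a short interspersed repeat of tRNA origin that RNA polymerase III can transcribe from its own copies. B1 is a short repeat related to the RNA of the signal recognition particle.

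Members that rose with carmofur frequently held the same stretch of sequence, so it is shown first. The shortest example was Gm37750, a TEC of 1 exon (GRCm38 chromosome 9, 104053327 to 104053455, plus strand), which lies on the same strand within the gene Gm28305 without sharing its exons. All of its 31-base words also occur in transcripts of other genes, and its 129 bases are recognised as B2 sequence. The following transcripts hold it too: Gm47551 (chromosome 13, 98801172 to 98803736), Gm20274 (chromosome 7, 122995348 to 122995931), Gm16196 (chromosome 17, 29014642 to 29032568), BC051077 (chromosome 5, 117312518 to 117315645) and Gm49413 (chromosome 15, 76577825 to 76580863). The sequences are from GENCODE M21 transcripts, on the transcript strand, and capitals mark bases within 15-base words shared with Gm37750. Gm37750 and Gm47551 are whole transcripts, and the others are the stretches richest in shared words.
Gm37750: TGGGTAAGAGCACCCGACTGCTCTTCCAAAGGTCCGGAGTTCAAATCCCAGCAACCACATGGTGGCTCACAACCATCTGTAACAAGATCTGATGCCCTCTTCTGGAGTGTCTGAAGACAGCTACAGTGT
Gm47551: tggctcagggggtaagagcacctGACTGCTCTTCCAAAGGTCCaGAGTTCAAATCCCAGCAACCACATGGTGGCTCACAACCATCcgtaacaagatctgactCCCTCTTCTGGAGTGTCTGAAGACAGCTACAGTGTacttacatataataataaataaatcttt
Gm20274: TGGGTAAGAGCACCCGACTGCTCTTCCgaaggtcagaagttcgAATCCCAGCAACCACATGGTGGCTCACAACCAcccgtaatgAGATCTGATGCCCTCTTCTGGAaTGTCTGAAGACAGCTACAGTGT
Gm16196: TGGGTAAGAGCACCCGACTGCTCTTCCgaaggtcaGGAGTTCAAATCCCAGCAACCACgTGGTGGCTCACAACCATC
BC051077: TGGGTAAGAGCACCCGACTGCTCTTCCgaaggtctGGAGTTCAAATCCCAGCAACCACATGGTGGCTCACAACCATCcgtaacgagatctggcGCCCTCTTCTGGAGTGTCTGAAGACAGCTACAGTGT
Gm49413: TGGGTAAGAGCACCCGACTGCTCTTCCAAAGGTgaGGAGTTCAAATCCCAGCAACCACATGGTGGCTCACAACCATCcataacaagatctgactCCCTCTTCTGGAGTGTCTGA
Of the 115 distinct words of Gm37750, the stretches shown hold 54 in Gm47551, 47 in Gm20274, 26 in Gm16196, 63 in BC051077 and 53 in Gm49413. Capitals cover 96 of the 165 bases of Gm47551, 103 of 129 shown of Gm20274, 68 of 77 of Gm16196, 105 of 129 of BC051077 and 95 of 114 of Gm49413.

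With carmofur, 64 of the 401 members tested rose and 2 fell (16.0% and 0.499%). Over all 9992 genes tested the same calls were 5.21% and 3.80%, together 9.02%. A call is an adjusted p under 0.05 (Benjamini-Hochberg over all genes tested) in the quasi-likelihood test of edgeR, as for every single-gene value below. The median log2 fold change of the members was 0.48, against 0.00165 over all genes, and 281 of the 401 lay above 0. Among the members with 10 counts in at least 6 libraries of each group, 58 of 317 tested rose, 2 fell and the median was 0.36. When counts were summed over the 9 sets of 3 consecutive library numbers, each of 1 group, 36 of 407 members tested rose. In that fit 249 of 12653 genes rose.

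The members' summed share of all counts lay between 1.08% and 1.31% in the 12 controls (median 1.20%) and between 1.40% and 2.86% in the 15 carmofur libraries (median 1.73%), with no overlap. Malat1 alone made up 0.178% to 0.474% in the controls and 0.239% to 1.002% with carmofur. Without Malat1 the members' share was 0.824% to 1.004% and 1.08% to 1.86%, again without overlap. In the palmitic acid experiment the members' share was 1.62% to 1.93% in the controls, 1.33% to 1.51% in batch1 and 1.72% and 1.89% in batch2.

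The rises included 49 of 322 lncRNA and 15 of 79 TEC genes tested. Among members with a mean of at least 100 CPM 17 of 26 rose (65.4%, against 14.1% of all genes at that level), and among those of 30 to 100 CPM 24 of 42 (57.1% against 8.23%). Under 10 CPM 9 of 249 rose (3.61% against 1.13%). By position in GENCODE M21, 16 of 55 members on the same strand within a protein-coding gene, without shared exon bases, rose (29.1%). So did 19 of 112 overlapping a coding gene in antisense (17.0%), 5 of 35 divergent from a coding start (14.3%) and 22 of 161 intergenic ones (13.7%). Of members sharing exon bases with a coding gene 1 of 20 rose (5.0%). Of those starting within 10 kb past a coding gene's end 1 of 17 did (5.88%). Over all genes tested 5.21% rose. The position classes were not split by the sequence shown above, so position and sequence cannot be told apart here. These splits were chosen after the values were seen and are descriptions without a test.

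Of 29 tested coding genes beside the risers 1 passed upward and 2 downward, where 5.21% and 3.80% of all genes tested did. Counts this small cannot be told from those shares. Of the 64, 45 overlap a protein-coding gene or start within 10 kb of one, and 29 of those genes were tested. Their median log2 fold change was 0.15, with 1 higher and 2 lower, and that of the 144 tested neighbours of the other members was -0.05, with 3 higher and 4 lower. The 1 neighbour that rose was Golga3, a Golgi protein gene around Gm43138 (log2 fold change 1.16 ± 0.15 SE, adjusted p = 4.67e-07, against 1.29 for Gm43138). The 2 that fell were Srsf3, a splicing factor gene divergent from Gm16196 (-0.50 ± 0.11, adjusted p = 0.0019), and Sec11a, a signal peptidase gene around Gm45718 (-0.33 ± 0.09, adjusted p = 0.0176). The left-out small nucleolar RNA host genes went 0 up and 1 down of 16, beside the same 5.21% and 3.80% of all genes. The part of intron reads of the surrounding genes in these values was not tested.

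Members holding at least 20 of the 115 words of Gm37750 on their own strand accounted for most of the rises. Of these 92 members, 42 rose and 0 fell (45.7%, median log2 fold change 0.90, 85 above 0). Of 37 tested members with 1 to 19 words 6 rose (16.2%, median 0.70). Of 271 with no word 16 rose and 2 fell (5.9% rose, median 0.14), where 5.21% of all genes rose. Over all genes tested, 30.1% of 541 with at least 20 words and 3.74% of 8976 with no word rose. With a mean of at least 30 CPM, 32 of 34 members with the sequence rose (94.1%, against 50.2% of all such genes at that level). Of members without a word, 7 of 31 rose at that level (22.6%, against 7.51% of all genes without a word). Under 30 CPM 9 of 240 members without a word rose (3.75% against 1.52%), where the member rule can favour genes high with carmofur. At a minimum of 1 word 48 of 129 members rose, and at 40 words 29 of 45.

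**Figure D1:**
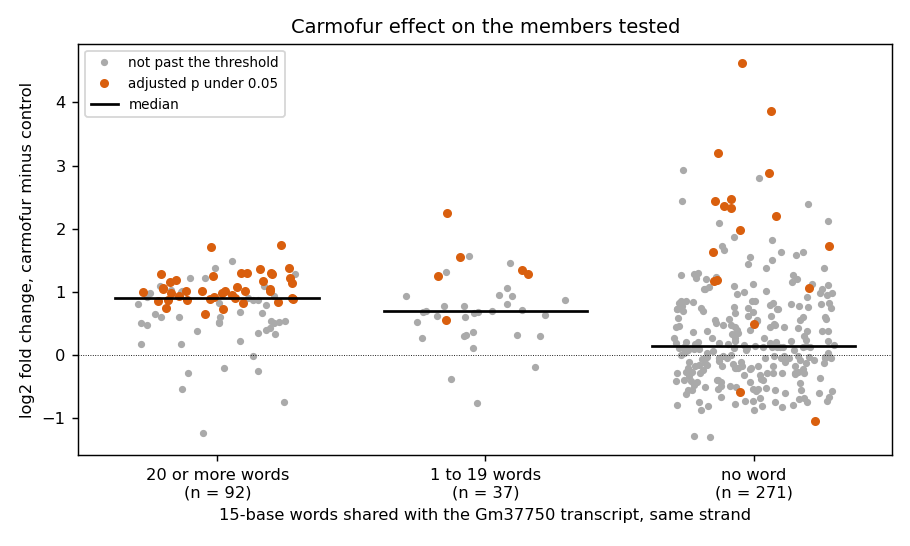
Log2 fold change with carmofur (y axis, carmofur minus control) of each member tested, by the number of 15-base words shared with the Gm37750 transcript on the same strand; orange points passed an adjusted p of 0.05 and lines are medians. The 92 members with at least 20 words centre on 0.90, and the 271 with no word on 0.14 with a wider spread.

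This split was found after the carmofur values had been seen, in a search of what the risers shared, and has no test. In that search 4 sets were looked at, B2 and B1 on either strand. B1 words were taken from the reverse strand of the annotated Gm24303 transcript (126 bases, 0 words shared with Gm37750). No repeat annotation was used. Words shared with 1 transcript can miss diverged copies, so a gene with no word can still hold B2 or B1 sequence. Members with at least 20 antisense B2 words and no sense one numbered 5, of which 0 rose (median -0.28). Of members with B1 and no sense B2 word, 1 of 15 (B1 sense) and 0 of 12 (B1 antisense) rose. In protein-coding genes, 117 of 438 with sense B2 rose and 8 fell (26.7% rose, median 0.39), while 9 of 294 with antisense B2 alone rose and 13 fell (median 0.00677). With B1 and no sense B2 word, 15 of 575 (sense) and 19 of 605 (antisense) coding genes rose, 2.61% and 3.14%.

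Holding sense B2 sequence was also linked with being counted at all. Of 143 genes of the lncRNA and TEC types with at least 20 sense words, 92 were members (64.3%). Of 12572 with no sense word 276 were (2.2%), and of 153 with antisense words alone 5 were (3.27%). Among protein-coding genes 438 of 486 with sense B2 passed the expression filter of the carmofur fit (90.1%), against 294 of 387 with antisense B2 alone (76.0%) and 8516 of 20604 with no sense word (41.3%). Salmon divides reads that fit several transcripts among them, and a copy of B2 outside the annotation can give the same reads. Whether the counts of these members came from their own transcripts or from other B2 copies cannot be told apart in gene-level counts.

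Gm37750 lay between 139 and 260 CPM in the 12 controls (median 173) and between 279 and 691 CPM in the 15 carmofur libraries (median 379). The groups did not overlap. On the log2 scale the fitted change was 1.17 ± 0.14 (SE, adjusted p = 7.97e-08). Treated values differed between library sets, with 279 to 292 CPM in carmofur 1 to 3 and 589 to 691 CPM in carmofur 10 to 12. The p treats the 15 carmofur libraries as separate observations. Gm16196, divergent from Srsf3, went from 515 to 827 CPM in the controls (median 657) to 942 to 2107 CPM with carmofur (median 1246). All 15 treated libraries were above all controls, with a log2 fold change of 1.07 ± 0.12 (adjusted p = 1.09e-08). Gm49413, within Adck5, went from 69.1 to 138 CPM (median 100.5) to 169 to 342 CPM (median 231), also without overlap (1.296 ± 0.13, adjusted p = 3.85e-09). Adck5 itself, around it, was at 0.25 (adjusted p = 0.899).

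BC051077 lay at 184 to 344 CPM in the controls (median 242) and 347 to 876 CPM with carmofur (median 508), without overlap (1.16 ± 0.14, adjusted p = 1.41e-07). Gm20274, within Rbbp6, lay at 71.9 to 115.5 CPM (median 86.5) and 114 to 258 CPM (median 168), with 14 of 15 treated libraries above all controls (0.99 ± 0.14, adjusted p = 9.93e-07). Gm47551, antisense to Fcho2, lay at 71.0 to 130 CPM (median 91.6) and 105 to 247 CPM (median 151). Of its treated libraries 12 were above all controls (0.82 ± 0.14, adjusted p = 3.60e-05). Most of the 31-base words of Gm47551 (92.6%) and all of those of Gm37750 occur in other genes, so the division of reads is uncertain for both.

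Summed over the 92 members, sense B2 holders took 0.330% to 0.491% of counts in the controls (median 0.385%) and 0.555% to 1.16% with carmofur (median 0.729%), without overlap. Members without a word, Malat1 left out, took 0.414% to 0.455% (median 0.434%) and 0.428% to 0.586% (median 0.491%), and 13 of the 15 carmofur libraries lay above every control. Their ranges overlapped in block 1 (0.433% to 0.444% and 0.428% to 0.493%), but not in block 2 (0.416% to 0.424% and 0.501% to 0.586%) or block 3 (0.414% to 0.455% and 0.482% to 0.491%). In the palmitic acid experiment the B2 holders took 0.543% to 0.620% in the controls, 0.430% to 0.538% in batch1 and 0.633% and 0.634% in batch2. The palmitic acid controls therefore lay above all carmofur controls, a difference between experiments whose source was not tested.

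**Figure D2:**
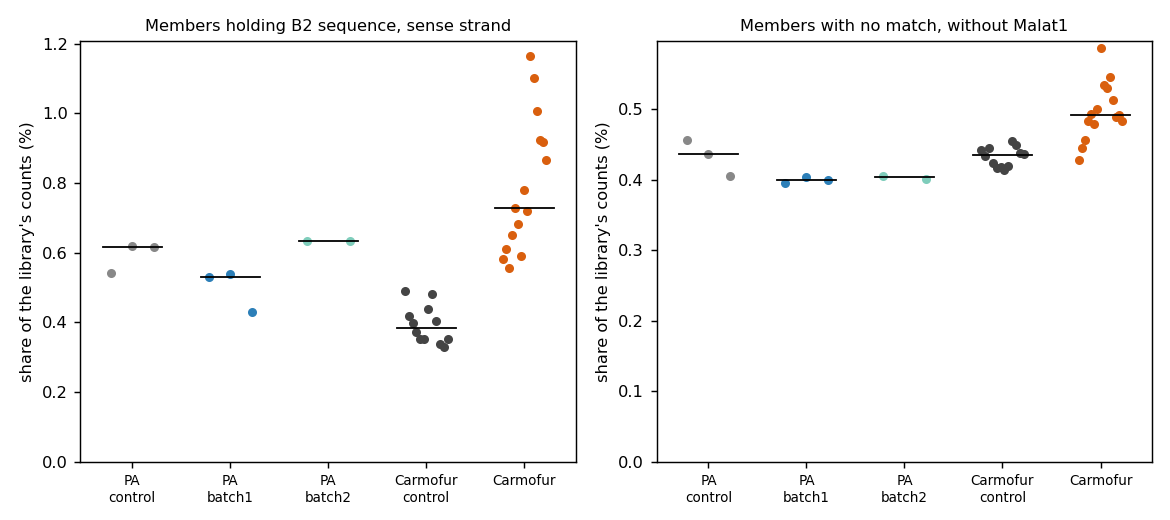
Share of each library's counts (y axis, percent) taken by members holding at least 20 sense B2 words (left) and by members with no word, without Malat1 (right), by group; points are libraries and lines medians. On the left all 15 carmofur libraries lie above the 12 carmofur controls, and on the right 13 of the 15 do.

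The carmofur library numbers fall into 3 blocks of 12 consecutive numbers, which the labels do not call batches. Block 1 and block 2 hold 3 controls and 6 carmofur libraries each, and block 3 holds 6 controls and 3 carmofur libraries. Within block 1 the members' median log2 fold change was 0.26, with 6 of 401 members higher and 1 lower, where 79 of 9992 genes were higher and 97 lower. Within block 2 it was 0.82, with 50 members higher and 2 lower, where 474 genes were higher and 339 lower. Within block 3 it was 0.48, with 41 members higher and 1 lower, where 372 genes were higher and 234 lower. Of the 92 B2 holders 3, 35 and 29 were higher in the 3 blocks, 3.26% of them in block 1. The B2 holders' share of counts was 0.397% to 0.491% in controls and 0.555% to 0.729% with carmofur in block 1, 0.351% to 0.372% and 0.589% to 1.16% in block 2, and 0.330% to 0.480% and 0.866% to 0.923% in block 3, without overlap in any block.

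Of the 64 risers, 22 did not reach 20 words, and 8 shared no 31-base word with any other gene. Those 8 were among 84 tested members of that kind (9.52%, against 5.21% of all genes). Gm29865, an intergenic RNA of unknown role (chromosome 3, 131759805 to 132030743), was at 18.4 to 61.8 CPM in the controls (median 25.8) and 78.3 to 225 CPM with carmofur (median 134). The groups did not overlap, and the log2 fold change was 1.98 ± 0.20 (adjusted p = 3.85e-09). Morrbid, which in myeloid cells is known to repress the nearby apoptosis gene Bcl2l11 (chromosome 2, 128178319 to 128502765), rose from 32.5 ± 8.21 CPM (SD, n = 12) to 100.5 ± 41.0 CPM (SD, n = 15), a log2 fold change of 1.63 ± 0.20 (edgeR adjusted p = 1.21e-07). Every treated library of Morrbid was above every control.

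Wincr1, an RNA named for its response to Wnt signalling (chromosome 4, 89050308 to 89084614), lay at 12.98 to 48.5 CPM in the controls (median 38.8) and 42.3 to 121.5 CPM with carmofur (median 86.1). Of its treated libraries 13 were above all controls (1.18 ± 0.19, adjusted p = 1.25e-05). Lockd, transcribed downstream of the cell-cycle inhibitor gene Cdkn1b (chromosome 6, 134929092 to 134956798), lay at 7.15 to 64.4 CPM (median 39.1) and 55.2 to 166 CPM (median 83.1), with 13 of 15 treated libraries above all controls (1.24 ± 0.22, adjusted p = 8.30e-05). Cdkn1b itself was at 0.31 (adjusted p = 0.844).

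Bc1 is a short RNA polymerase III transcript known from neurons, with an A-rich stretch inside (chromosome 7, 144914470 to 144914637). The GENCODE M21 transcript is shown for its internal A-run, since the libraries were made from polyadenylated RNA, and the capitals mark the longest run, 23 bases. Whether the A-run had a part in the counts was not tested.
Bc1: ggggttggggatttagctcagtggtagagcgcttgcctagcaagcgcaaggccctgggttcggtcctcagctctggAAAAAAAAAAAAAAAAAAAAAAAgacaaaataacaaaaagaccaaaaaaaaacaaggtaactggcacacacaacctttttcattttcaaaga
Bc1 holds 0 of the Gm37750 words, and 40.6% of its 31-base words occur in other genes. It lay at 19.4 to 111 CPM in the controls (median 51.3) and 63.7 to 254 CPM with carmofur (median 117). The groups overlapped, with 9 of 15 treated libraries above all controls, and the log2 fold change was 1.17 ± 0.24 (adjusted p = 0.00052). The call was lost when counts were summed by library set (adjusted p = 0.0702).

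**Figure D3:**
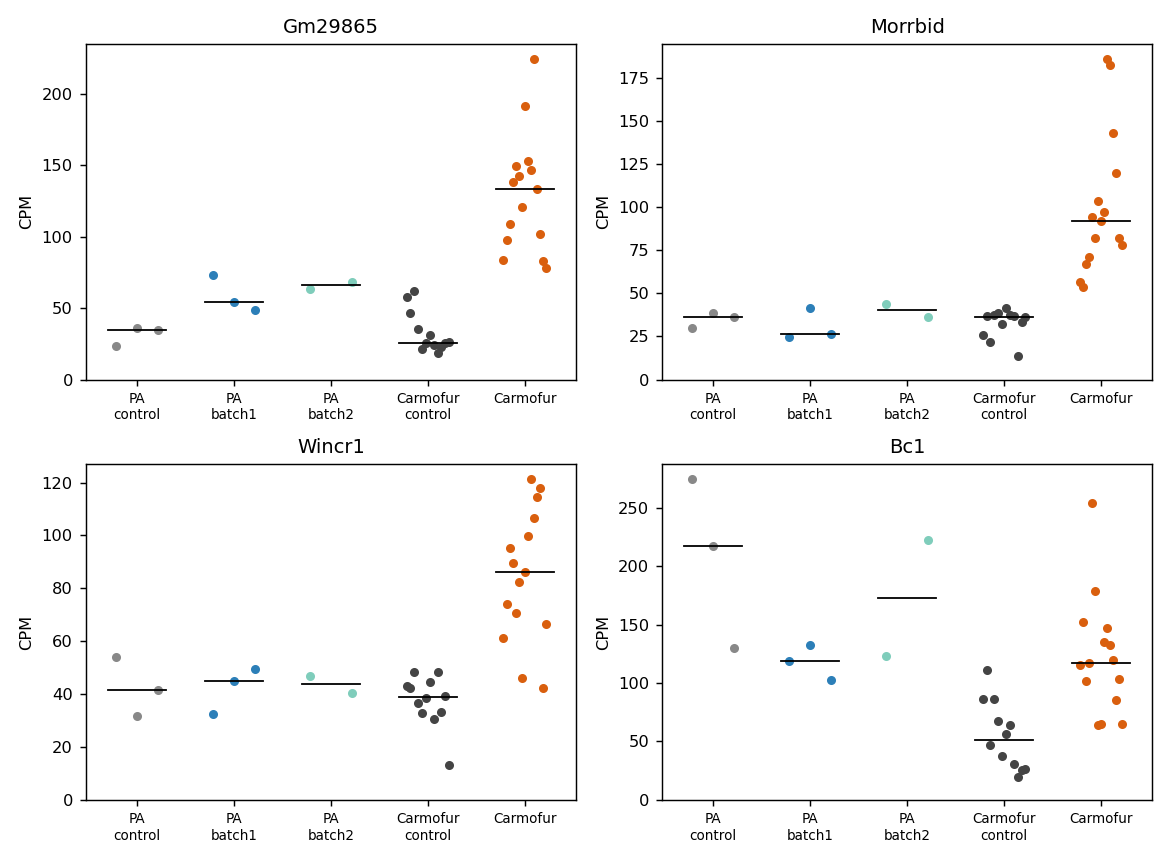
CPM per library (y axes) of 4 members that rose with carmofur and hold fewer than 20 sense B2 words, by group; points are libraries and lines medians. All carmofur libraries lie above the carmofur controls for Gm29865 and Morrbid, while the ranges overlap for Wincr1 and Bc1.

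Among risers averaging at least 5 CPM over the 27 libraries, with at least 12 of 15 treated libraries above the control median, the 10 largest rises were Gm19705, Gm14167, 5830428M24Rik, 0610040F04Rik, 4930425O10Rik, Platr26, Gm29865, Gm44913, 1110028F11Rik and Gm26885. Gm44913 and Gm26885 hold at least 20 sense words, and the other 8 hold none. Gm19705, intergenic, was at 0 to 1.501 CPM in the controls and 0 to 28.9 CPM with carmofur (23 counts over 12 libraries against 1106 over 15). Its fitted log2 fold change of 4.63 ± 0.84 (adjusted p = 0.000102) is uncertain in size, because controls at this level are near the limit of 3 counts. Gm19705 reached 10 counts in 0 controls and in 12 carmofur libraries, so it is a member through the treated group alone and had to differ. Gm14167 was at 0 to 6.43 CPM and 0 to 20.7 CPM (2.47, adjusted p = 0.0327). Its controls 4, 5 and 10 had 11, 14 and 48 counts, and each other control had at most 6. Of the carmofur libraries only carmofur 6, with 0, was under 10 counts. The treated libraries of Gm14167 alone therefore sufficed for the member rule, and its rise is not separate from that selection. Its call was lost without library set 1, 6, 7 or 8, and without carmofur control 1 and carmofur 8 and 10 together. It was also lost with the replicate number as a covariate and with sums by set. Platr26 was at 0 to 9.78 CPM and 0.484 to 63.8 CPM (2.19, adjusted p = 0.018), with its call lost without set 4, 5, 6 or 7, without the same 3 libraries, with the library block as a covariate and with sums by set.

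1110028F11Rik, within Rnf43, rose from 17.8 ± 11.9 to 58.6 ± 22.0 CPM (SD, n = 12 and 15; 1.73 ± 0.35, edgeR adjusted p = 0.000559). Rnf43, a ubiquitin ligase gene of Wnt receptors, was at -0.41 (adjusted p = 0.396). The intergenic 5830428M24Rik and 4930425O10Rik rose by 2.45 ± 0.51 and 2.33 ± 0.50, each with 14 of 15 treated libraries above the control median. 0610040F04Rik, antisense to the clock regulator gene Bhlhe40, rose by 2.36 ± 0.60 (adjusted p = 0.00666), while Bhlhe40 was at -0.20 (adjusted p = 0.652). The call of 0610040F04Rik was lost with the library block as a covariate (adjusted p = 0.0589).

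The 2 members that fell were Gm20559 and Gm20427. Gm20559, intergenic, went from 40.7 ± 15.9 to 19.8 ± 10.8 CPM (SD, n = 12 and 15, log2 fold change -1.04 ± 0.31, edgeR adjusted p = 0.0236). It lost its call without library set 1, 2, 8 or 9 and with the library block or the replicate number as a covariate. Gm20427 went from 63.2 ± 12.0 to 42.4 ± 11.6 CPM (-0.58 ± 0.16, adjusted p = 0.0164). It shares 92.9% of its 31-base words with transcripts of other genes, so the division of reads is uncertain. Its call was lost without set 3 or 4 and with sums by set.

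Malat1 (chromosome 19, 5795690 to 5802672) did not pass with carmofur, and Neat1 (chromosome 19, 5824708 to 5845478) passed in 1 palmitic acid comparison. Malat1 was at 1792 to 4758 CPM in the carmofur controls (median 2856) and 2360 to 10433 CPM with carmofur (median 3745). The ranges overlapped, 6 treated libraries were above all controls, and the log2 fold change was 0.61 ± 0.22 (adjusted p = 0.0915). It passed with the library block as a covariate (0.50, adjusted p = 0.0164) and without library set 3 (0.75, adjusted p = 0.0298). Neat1 was at 36.0 to 119 CPM and 31.3 to 191.5 CPM (medians 79.8 and 69.2), and 2 treated libraries were above all controls (-0.12 ± 0.21, adjusted p = 0.865).

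In the palmitic acid experiment Neat1 read 240 (replicate 1), 169 and 104 CPM in the controls, 92.2, 88.1 and 88.0 CPM in batch1 and 117 and 139 CPM in batch2. All batch1 libraries were below all controls, and batch2 overlapped them. The log2 fold change was -0.91 ± 0.21 in batch1 (adjusted p = 0.0143) and -0.40 ± 0.23 in batch2 (adjusted p = 0.785). The batch1 call was lost without control replicate 1, the shallowest library (-0.62, adjusted p = 0.329), without any 1 batch1 library (adjusted p from 0.126 to 0.193), and with both batches as 1 group (-0.70, adjusted p = 0.145).

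Malat1 read 8730, 7607 and 5481 CPM in those controls, 5483, 5175 and 4813 CPM in batch1 and 6466 and 8140 CPM in batch2. The lowest control and the highest batch1 library all but coincided. Its log2 fold change was -0.50 ± 0.13 in batch1 (adjusted p = 0.068) and 0.00648 ± 0.14 in batch2 (adjusted p = 0.997). Without control replicate 3 the batch1 value passed (-0.67, adjusted p = 2.83e-05), and so it did without batch2 replicate 1 or 2, or with no filter.

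**Figure D4:**
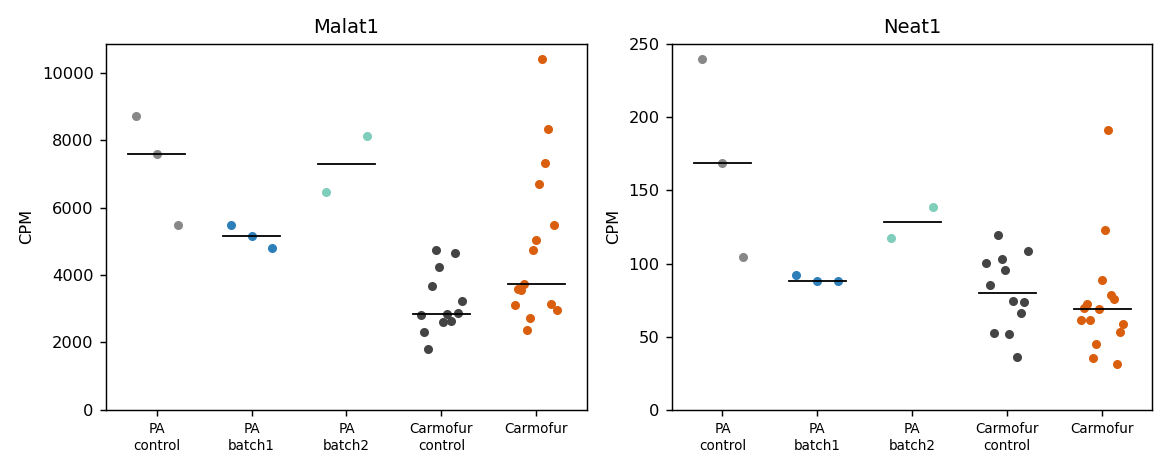
CPM per library (y axes) of Malat1 and Neat1 by group; points are libraries and lines medians. The 3 batch1 libraries of Neat1 lie between 88.0 and 92.2 CPM, below the controls, while the carmofur groups overlap for both genes.

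Genes for proteins of the nuclear bodies and decay pathways of these RNAs were counted in 5 lists, beside 5.21% of all genes higher and 3.80% lower with carmofur (median 0.00165). Of 21 tested paraspeckle protein genes 0 rose and 1 fell with carmofur (3 at an unadjusted p under 0.05, 1 by DESeq2, median -0.16), namely Nudt21, a 3' end processing factor (-0.87 ± 0.29, adjusted p = 0.046). The paraspeckle proteins Nono (0.07, adjusted p = 0.793) and Sfpq (-0.16, adjusted p = 0.739) did not pass. Of 28 nuclear speckle and splicing factor genes 0 rose and 2 fell (4 unadjusted, 2 by DESeq2, median -0.03), Srsf3 and Sf3b1, a branch-site recognition factor (-0.48 ± 0.08, adjusted p = 7.31e-05). Of 26 genes of the nuclear RNA exosome, which degrades many non-coding RNAs, 1 rose and 0 fell (1 unadjusted, 1 by DESeq2, median -0.06), the subunit gene Exosc2 (0.53 ± 0.10, adjusted p = 0.000144). Of 21 nonsense-mediated decay genes 0 passed by edgeR (1 unadjusted, 0 by DESeq2, median -0.14), and of 17 m6A genes 0 passed (1 unadjusted, 1 by DESeq2, median -0.21). With palmitic acid 0 genes of these 5 lists passed in either batch by edgeR or by DESeq2, and each list had 0 to 2 genes at an unadjusted p under 0.05. By edgeR 0.559% of all genes passed in batch1 and 0.325% in batch2.

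Other known long non-coding RNAs had values that did not pass with carmofur. Xist was at 107 ± 39.8 CPM in the controls and 100.1 ± 22.1 CPM with carmofur (SD, n = 12 and 15; -0.10 ± 0.16, edgeR adjusted p = 0.841). Norad, a binder of Pumilio proteins, was at 99.4 ± 32.2 and 85.1 ± 19.2 CPM (-0.23 ± 0.16, adjusted p = 0.513). Kcnq1ot1, the imprinted antisense RNA (0.38), the Myc neighbour Pvt1 (0.26), the microRNA hosts Mir17hg (0.39) and Mir22hg (0.66), Dancr (0.57), Chaserr (0.12), Jpx (0.44) and Hoxa11os (0.03) did not pass either, with adjusted p from 0.343 to 0.984. Ftx and Dleu2 hold at least 20 sense words and did not pass (1.37 and -0.25), at means of 2.14 and 9.42 CPM in the controls.

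Per kilobase of annotated exon, the highest members in the carmofur controls were Gm37750 (1441 CPM per kb), Gm10076 (973), Gm43558 (651), 2410006H16Rik (632), Gm47551 (571), Malat1 (459), Bc1 (326), Gm16196 (302), Gm45251 (278) and Gm42432 (249). Of these, Gm37750, Gm47551, Gm16196 and Gm45251 hold at least 20 sense words. Gm10076, a member that shares 84.2% of its 31-base words with other genes, was at 374 ± 39.4 and 375 ± 54.3 CPM (SD, n = 12 and 15; log2 fold change 0.01 ± 0.08). Within the carmofur controls the widest spread on the log2(CPM + 1) scale was that of Airn (SD 2.05), 2610306M01Rik (1.87) and Gm2895 (1.87). Likeness was taken over the 12 controls, whose total counts ranged from 1663750 to 8124707. The log2 levels most like Malat1 were those of Gm14167 (Pearson r = 0.74) and Dleu2 (0.724), and most like Neat1 those of Gm13056 (0.755) and Dleu2 (0.632). Gm14167 had only 0 to 48 counts in these controls, most of them near the limit of 3 counts. Malat1 and Neat1 themselves gave r = 0.496.

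With palmitic acid in batch1, 1 of 317 members tested was called, Neat1, where 0.559% of all 9845 genes were. The members' median log2 fold change was -0.19 (all genes 0.01). That of the B2 holders was -0.26 with 13 of 82 above 0, and that of members with no word -0.11 with 90 of 212 above 0. In batch2, compared with the same controls, 0 members passed by edgeR (19 at an unadjusted p under 0.05, 2 by DESeq2), where 0.325% of all genes did (0.183% higher). The medians there were -0.05 for all members and 0.10 for the B2 holders. Directly between batches 0 of 317 members passed by edgeR (12 at an unadjusted p under 0.05, 0 by DESeq2). Of all genes 0.102% passed, 0.0609% higher and 0.0406% lower in batch2. Of the B2 holders 75 of 82 lay higher in batch2 (median 0.33), and of members with no word 103 of 212 (median -0.057). Over all genes tested with at least 20 words 371 of 511 lay higher. Reads can be divided among B2 holders, so their values are not separate observations.

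Among single members, Gm49708 had the lowest p in batch2. It read 19.3, 21.5 and 23.8 CPM in the controls, 50.4, 55.2 and 47.6 CPM in batch1 and 58.5 and 46.2 CPM in batch2. All treated libraries of both batches were above the controls, with log2 fold changes of 1.23 ± 0.33 (adjusted p = 0.0546) and 1.26 ± 0.35 (adjusted p = 0.102) that did not pass. Gm29865 read 23.2, 36.0 and 34.6 CPM, then 73.2, 54.5 and 48.6 CPM in batch1 and 63.6 and 68.2 CPM in batch2. Its values were 0.87 ± 0.30 (adjusted p = 0.261) and 1.04 ± 0.32 (adjusted p = 0.195). Gvin-ps1 was listed at 0 in both batch2 libraries and at 2.58, 5.88 and 11.2 CPM in the controls, where 3 counts, the limit a count of 0 allows, are 0.812 and 1.25 CPM in the batch2 libraries.

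Gm37750 read 314.5, 365 and 341.5 CPM in the palmitic acid controls, 299, 327 and 228 CPM in batch1 and 371.5 and 381.5 CPM in batch2. Batch1 overlapped its controls and batch2 lay just above them (-0.26 ± 0.15 and 0.14 ± 0.17, adjusted p = 0.707 and 0.995).

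The carmofur and batch1 effects differed in 15 members, all more positive for carmofur. This was tested in a fit of all 35 libraries, as the difference of the effects, with 14052 genes and 407 members tested and 0.690% of all genes called (0.548% higher). These effects do not share controls, but the treatments were done in separate experiments. Of the 15, 13 hold at least 20 sense words, C730034F03Rik holds 19 and Morrbid 0. The lowest adjusted p was that of Gm49413 and Gm13075 (0.000614 each), with differences of 1.69 ± 0.29 and 1.47 ± 0.25. Gm13075 lay at 196 to 383 CPM in the carmofur controls and 377 to 767.5 CPM with carmofur. It lay at 400 to 436 CPM in the palmitic acid controls and 263 to 344 CPM in batch1. Morrbid differed by 1.82 ± 0.44 (adjusted p = 0.0336) and lost its call under 8 alternatives, 6 of them the loss of a single palmitic acid library. Members with the sequence lost calls too, Gm10785 under 11 alternatives, Gm20274 under 10, and Gm42508 and 2810403D21Rik under 9 each. C730034F03Rik lost its call under 9 and Gm47594 under 1, and Gm49413 and Gm13075 kept theirs. The number of members called was 9 without control replicate 1, 7 without control replicate 2, 5 without control replicate 3, 6, 8 and 2 without batch1 replicate 1, 2 and 3, and 13 and 9 without batch2 replicate 1 and 2.

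**Figure D5:**
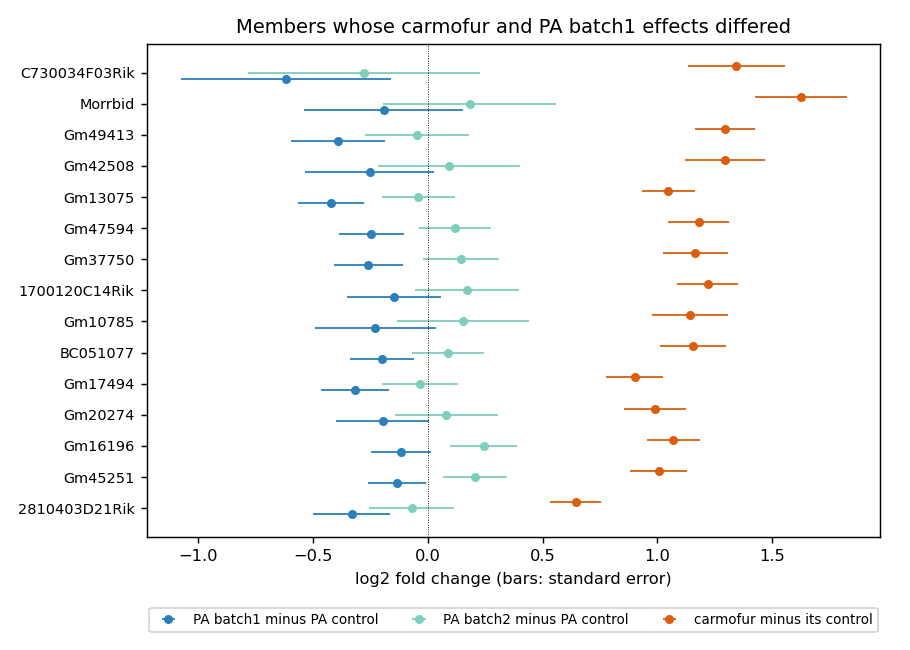
Log2 fold change with standard error (x axis) of the 15 members whose carmofur and batch1 effects differed, for carmofur (orange) and palmitic acid batch1 (blue) and batch2 (green) against their own controls. Carmofur values lie between 0.64 and 1.63, and all batch1 values lie below 0.

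Promoter windows were searched for 7 short motifs. RefSeq windows of GRCm38 (250 bases before to 50 after a start) were found for 182 member symbols (233 windows), 27 of them risers (30 windows), and 32851 windows served as reference. Both strands were searched. CCAAT was in 53.3% of the risers' windows, 41.2% of the members' and 37.4% of all. The GC box GGGCGG was in 9 of the 30 risers' windows, 38.2% and 35.7%, the E-box CACGTG in 3.33%, 8.58% and 7.15%, and TATAAA in 13.3%, 13.7% and 13.6%. TGATGNAA was in 6.67%, 2.15% and 3.97%, TGANTCA in 3 of 30, 6.01% and 7.81%, and TGACGTCA in 0%, 3.0% and 1.79%. A match is only these letters in the window.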

How the data were processed

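Polyadenylated RNA was made into strand-specific libraries per the labels' protocols. The authors deposited 1 table of estimated counts per gene (whole numbers), and Salmon 1.3.0 and mm10 are named in the submitters' processing notes. Not given in the sources used here: which annotation, how transcripts were joined to genes, and whether strand was used. Positions, exons and transcripts came from GENCODE M21 (GRCm38), which holds 406 of the 407 members. 1 member has no name, and Tmem147os stands for 2 members.

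The members, lists, named members and motifs were chosen with earlier results of these data known. Named were fixed well known RNAs, the 10 largest rises and falls averaging 5 CPM or more, with 12 of 15 treated libraries beyond the control median, all calls (or the 3 lowest p) of the other comparisons, the 10 highest per kilobase and the 3 widest spreads. Members shown for sequence, and Golga3, Sec11a, Lockd's neighbour and other single neighbours, were chosen after their values were seen. A first look at repeats used consensus sequences recalled from memory. The values given use annotated transcripts, with a word length of 15 bases (31 for sharing with other genes).

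Tests used edgeR 4.0.16 in R 4.3.3 (TMM, its default filter, robust quasi-likelihood F test, threshold 0.05), on 27 carmofur libraries, 8 palmitic acid libraries, and all 35 for the difference. A standard error is the log2 fold change divided by the square root of F. On simulated data the carmofur fit found 30.2% of 2-fold and 70.7% of 4-fold changes over 9700 genes, and the batch 1 fit 19.6% and 55.2% over 9316. Of the calls on simulated data 4.08% and 6.49% were false. The simulated libraries were drawn independently, without library blocks or sets, so these rates do not cover such structure in the data. Alternatives were RLE and library-size scaling, DESeq2 1.42.0, other filters and thresholds, libraries or library sets left out, blocks and summed sets. Within groups, no pair of libraries agreed within counting error (lowest chi-square per degree of freedom 7.87). Intervals from counts cover counting error only, and 3 counts is the limit that a count of 0 allows.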

Additional observations from a re-analysis of the deposited data

How the results depend on the processing

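Under RLE or library-size scaling, DESeq2, no filter and a mean count filter, all 66 member calls with carmofur were kept. Leaving out each of the 9 library sets gave 51 to 61 members higher, 1 to 4 lower, 37 to 43 of the B2 holders higher and 740 to 981 genes in all. Counts summed by set gave 36 higher, 1 lower, 23 B2 holders higher and 334 of 12653 genes in either direction. The lower count was 4 by DESeq2 and without carmofur control 1 and carmofur 8 and 10 (libraries an earlier look found apart), and 0 at an adjusted p of 0.01, where 584 genes passed in all. With no filter 3541 genes passed. Without the B2 holders, an alternative chosen after the data were seen, 22 members were higher. In batch 1, 2 members passed with RLE and with DESeq2, 3 with no filter, 0 at 0.01 and 0 to 4 with a library left out. In batch 2, 2 passed by DESeq2 and 0 to 1 with a library left out, and between batches 1 with no filter and 0 to 1. The difference of effects was called in 25 members by DESeq2, 9 with no filter, 6 at 0.01 and 2 to 13 with a library left out. Neat1 with carmofur, not past the threshold, ranged from -0.33 without set 6 to 0.0356 without set 4, and was 0.00892 and 0.0115 without set 3 and 8.

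Replicate numbers shared between groups were not treated as pairs in the main fits. Same-number deviations from the group means correlated at -0.0605 to 0.101 for carmofur and -0.0399 to 0.0225 for palmitic acid. Of 12 carmofur libraries 1 correlated best with the control of its own number, as did 0 of 3 batch 1 and 2 of 2 batch 2 libraries. The deviations of the 2 batch 2 libraries mirror each other, so only 0 or 2 of 2 was possible there. With the replicate block, 52 members were higher and 1 lower with carmofur, and 4 differed between treatments. Among the members named for size, Gm14167 (adjusted p = 0.0778), Gm44913 (0.0837), Gm26885 (0.0598) and Gm20559 (0.13) did not pass with it. The rule gave 491 members at 5 counts, 314 at 20 counts and 245 at 20 libraries. Depth limits members under 10 CPM, where 1 count is 0.0974 to 1.29 CPM.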
